A study of Mus musculus with 48 samples.

Results

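The distal Vκ stretch described here is the Jκ-proximal end of the sub-domain sTAD1-2 of the mouse Igκ locus, 67905 to 68160 kb on chromosome 6 of mm9. Its members are the junctions whose prey end lay in these coordinates, 466034 of the 7265223 junctions of the Vκ stretch (67500 to 70660 kb) and of 8250887 junctions in all. The region holds 9 of the 138 break sites found in the Vκ stretch, and some junctions lay away from any site. Junctions were recorded with HTGTS-JoinT-seq, in which a primer next to a broken bait end reads across into whatever that end was joined to. The bait was either the coding end (CE) or the signal end (SE) of Jκ1. The 48 libraries form 16 groups of 3, from vAbl pro-B cells (mouse progenitor B cells transformed by the Abelson kinase) that were WT or Ku70-/-. Cells were cycling and untreated, or arrested for 96 h with 3 µM STI-571, an Abl kinase inhibitor, together with DMSO, 5 µM L67 (an inhibitor of DNA ligases I and III) or 25 µM L82-G17 (an inhibitor of DNA ligase I). The labels name no clone, and the study's methods name a single WT clone and a single Ku70-deficient clone. Each genotype is therefore taken here to be a single line, and p-values measure only the spread between its libraries.

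In V(D)J recombination the RAG nuclease cuts between a gene segment and its recombination signal sequence (RSS), which is a heptamer, a spacer and a nonamer. The cut leaves a hairpin-sealed coding end on the segment and a blunt signal end on the RSS. Classical non-homologous end joining (NHEJ), which needs the Ku70/Ku80 heterodimer, joins coding end to coding end and signal end to signal end with little loss. Without Ku, slower alternative end joining (A-EJ) can seal the breaks, with longer resection than NHEJ. It can use short matching sequences called microhomology (MH). The study ties strong reliance on MH to cycling cells and describes joints of arrested Ku70-/- cells as mostly direct, with limited resection. A joint between a coding end and a signal end is called a hybrid joint.

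All 9 break sites had their signal end on the plus strand, the orientation in which a coding joint to Jκ1 deletes the DNA in between (deletional sites). In the study's scheme their signal joints form an excision circle and their hybrid joints an inversion. Of the sites, 6 belong to annotated genes (Igkv1-122, Igkv17-121, Igkv9-120, Igkv1-117, Igkv2-116 and Igkv1-115), and the sites at 68006805, 68033116 and 68114918 carried no gene in the annotation used. The sequences are shown because each ending described here is measured from the last coding base, the letter before the heptamer. Heptamer and nonamer are in capitals and the coding flank and spacer in lower case, from the plus strand of mm9 for the Vκ sites and the minus strand for the bait.
Igkv1-122, chr6:67967471-67967510: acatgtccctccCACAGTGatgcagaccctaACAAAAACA
Igkv17-121, chr6:67987301-67987340: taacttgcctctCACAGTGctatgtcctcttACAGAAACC
Igkv9-120, chr6:68000439-68000478: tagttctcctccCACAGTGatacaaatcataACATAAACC
Unannotated site at 68006805, chr6:68006793-68006832: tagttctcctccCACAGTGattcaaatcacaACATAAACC
Unannotated site at 68033116, chr6:68033104-68033143: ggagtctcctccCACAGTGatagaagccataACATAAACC
Igkv1-117, chr6:68071810-68071849: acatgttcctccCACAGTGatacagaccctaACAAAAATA
Igkv2-116, chr6:68102600-68102639: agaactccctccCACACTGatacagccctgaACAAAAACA
Igkv1-115, chr6:68111699-68111738: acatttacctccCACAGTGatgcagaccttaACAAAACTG
Unannotated site at 68114918, chr6:68114906-68114945: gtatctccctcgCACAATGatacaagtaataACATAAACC
Igkj1 bait, chr6:70672517-70672567: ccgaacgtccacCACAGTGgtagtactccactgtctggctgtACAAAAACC

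The heptamer CACAGTG, the same as the bait's, stands at 7 of the 9 sites. Igkv2-116 has CACACTG and the site at 68114918 has CACAATG. Of the 9 coding flanks, only the one at 68114918 ends in G. Igkv9-120 and the site at 68006805 match at 255 of 300 coding-side bases and at 26 of 28 signal-side bases. Whether reads of one were placed on the other could not be checked, and their values carry that uncertainty.

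Libraries held 8294 to 385847 junctions each, and 59 to 24826 of these lay in the region. Counting each distinct combination of end positions once left 650 to 691 distinct junctions in the arrested WT coding end libraries with DMSO and 99 to 139 in the signal end ones. Both Ku70-/- libraries with STI-571 and DMSO that are replicate 1 of their bait stood apart, with 44 and 47 distinct junctions against 572 to 815 in the others of these groups. One distinct junction made up 30.7% and 18.7% of their region junctions, against 1.02 to 1.82% in the other replicates. The study's own listing of libraries holds neither of them, and the reason is not given in the sources used here. These 2 low-complexity libraries stay in the tests because their labels place them in the group, and results that rest on them are given with and without them. Junctions are PCR reads without molecular identifiers, so a library's precision is lower than its junction count. The cycling libraries were the shallowest, with 59 to 539 region junctions in Ku70-/- cells. By distinct junctions the cycling WT signal end libraries were the poorest group, with 7 to 14. Cycling Ku70-/- libraries had 11 to 27 from the signal end and 26 to 43 from the coding end. In the cycling WT signal end libraries 1 distinct junction made up 51.5, 51.5 and 32.7% of the region junctions.

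The region took 5.19 to 7.0% of the Vκ junctions of arrested cells on average, by genotype and bait. In WT cells with DMSO, the 3 coding end libraries had 6.77, 6.77 and 7.17% of their Vκ junctions there and the 3 signal end libraries 6.79, 6.63 and 6.40%. The coding end libraries of Ku70-/- cells had 6.41 and 7.01%, and 5.13% in the low-complexity one. Their signal end libraries had 5.01 and 5.32%, and 3.81% in the low-complexity one, all below the WT values. Over the 9 + 9 arrested libraries of a bait, with labels exchanged within treatment, the signal end share was 1.2 points lower in Ku70-/- cells (5.19 against 6.39%; exact two-sided permutation p = 0.00025, the smallest this design can give; 0.00029 adjusted over 14 comparisons), and the groups did not overlap within any treatment. For the coding end bait the difference was -0.36 points (6.64 against 7.0%; exact permutation p = 0.096) and did not pass the threshold. It passed, at -0.497 and -0.436 points, without Ku70-/- DMSO replicate 3 or Ku70-/- L67 replicate 1. It also depended on the denominator: taken over all junctions of the library, the difference was -1.46 points (exact permutation p = 0.00025), and with each distinct junction counted once it was 0.30 points.

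The share was lower from the signal end bait within each genotype, under most of the ways of counting tried. The signal end bait gave 0.61 points less than the coding end bait in WT cells (exact permutation p = 0.00075, adjusted 0.0011) and 1.44 points less in Ku70-/- cells (exact permutation p = 0.0005, adjusted 0.00078). The WT difference did not pass with each distinct junction counted once (-0.236 points, exact permutation p = 0.094), nor the Ku70-/- difference as a share of read pairs (-0.18 points, exact permutation p = 0.081). In cycling WT cells the share was 3.39, 3.91 and 4.73% from the coding end and 1.79, 2.02 and 2.47% from the signal end, in each case below all arrested libraries. Arrest therefore went with 2.89 and 4.51 points more (exact permutation p = 0.1 for each, the smallest that 3 against 3 can give), and with 1.78 and 1.83 points more with each distinct junction counted once. In cycling Ku70-/- cells it was 3.87 to 6.86% and 2.02 to 4.35%, overlapping the arrested values. For the signal end bait the overlap was with the low-complexity library alone. A few joints of fixed structure that recurred across libraries made up 24.1, 19.6 and 33.0% of these cycling coding end region junctions. They made up 9.55, 10.2 and 21.7% of the signal end ones. Shares without them were not computed, so the overlap may rest on them.

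Igkv1-117 was the most used site of the region from either bait in arrested WT cells. Its value was 22.4, 25.6 and 26.3 junctions per 1000 Vκ junctions from the coding end and 31.5, 28.6 and 24.1 from the signal end. Igkv9-120 came next from the coding end, with 18.6, 15.9 and 18.3, above Igkv1-122, with 11.6, 11.8 and 12.4. From the signal end the order was turned, with 14.4, 13.0 and 17.3 for Igkv1-122 above 8.61, 9.95 and 9.17 for Igkv9-120. The values of Igkv9-120 did not overlap between the baits. Igkv2-116 stood at 8.14 to 8.97 over both baits. The site at 68114918 gave 3.03 to 4.56 and Igkv17-121 gave 0.695 to 1.54 over both baits. The sites at 68006805 (0.305 to 0.753) and 68033116 (0 to 0.561) and Igkv1-115 (0 to 0.0585) were little used, and their order is not resolved at these depths.

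**Figure D1:**
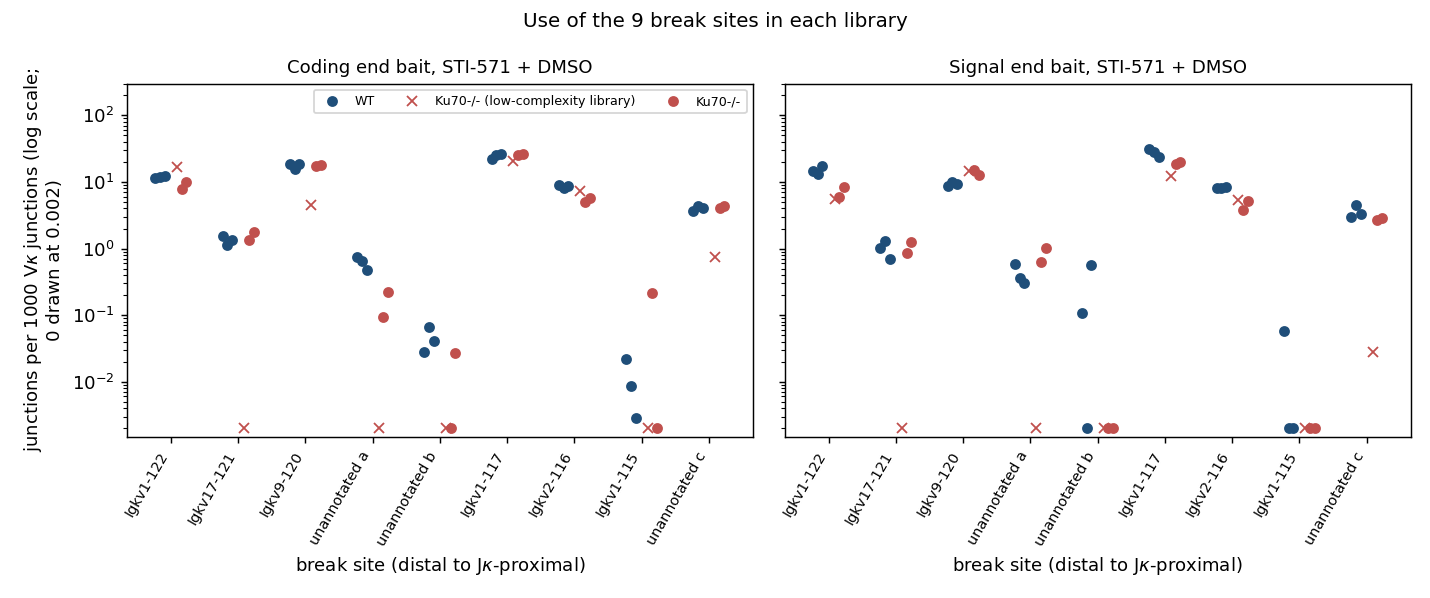
Each point is 1 library of arrested cells with DMSO, the x axis lists the 9 sites from distal to Jκ-proximal and the y axis gives junctions within 200 bp of the site per 1000 Vκ junctions on a log scale, with 0 drawn at 0.002. Unannotated a, b and c are the sites at 68006805, 68033116 and 68114918; crosses mark the low-complexity libraries. Igkv1-117 is highest, at 18.3 to 31.5, in each library but the low-complexity signal end one, where it is at 12.4, and Igkv9-120 is lower from the signal end bait than from the coding end bait in WT cells.

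Usage of a site was tested with limma over all Vκ sites of a mean of at least 50 junctions, with Benjamini-Hochberg adjustment at 0.05; fold changes are on the log2 scale of junctions per 1000 plus the value of 1 junction. The sites were themselves found in arrested WT signal end libraries, and a little used site can reach the minimum through 1 group alone, where it then had to differ. Such sites are named and given by their levels, and no fold or p of theirs is given beside a result. From the signal end bait, 3 of 7 region sites tested were lower in Ku70-/- cells, where 30.6% of all 111 sites tested were called in either direction (15 higher and 19 lower). Igkv1-122 fell from a mean of 14.9 to 6.61 per 1000 (log2 -1.18, SE 0.26, limma adjusted p = 0.0038), Igkv1-117 from 28 to 16.9 (log2 -0.75, SE 0.21, limma adjusted p = 0.014) and Igkv2-116 from 8.21 to 4.79 (log2 -0.79, SE 0.24, limma adjusted p = 0.023). From the coding end bait 2 of 7 were lower, against 27.7% of all 112 sites called in either direction (12 higher and 19 lower). One was Igkv2-116 (8.61 to 5.97; log2 -0.54, SE 0.14, limma adjusted p = 0.010). The other was the site at 68006805, with 273, 228 and 165 junctions in the WT libraries and 11 and 25 in the Ku70-/- ones (0 in the low-complexity one), which reached the minimum without the Ku70-/- group compared; its call was lost without WT replicate 1 or 2. Igkv2-116, with its CACACTG heptamer, was the only region site called from both baits, and its signal end call was lost on leaving out any 1 WT replicate or Ku70-/- replicate 2, while Igkv1-117 had nearly equal means from the coding end (24.2 against 24.7). The median log2 over all sites tested was -0.44 from the signal end and -0.60 from the coding end. From the coding end Igkv2-116 thus fell no more than the median site, and Igkv1-117 (log2 -0.037) lay above that median.

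The values of these sites changed with the way junctions were counted. With each distinct junction counted once, signal end usage of Igkv1-117 turned to log2 0.32 (limma adjusted p = 0.10), and Igkv1-122 (log2 -0.46) and Igkv2-116 (log2 -0.29 from the signal end and -0.38 from the coding end) kept their direction and lost their calls. In that count identical joints collapse, so it follows the variety of joint structures. The WT signal end libraries with DMSO held 1922 to 2616 distinct Vκ junctions. Ku70-/- replicates 2 and 3 held 13710 and 10973, and the low-complexity one 965. These changes therefore cannot be read as changes in usage, and their cause was not tested. The calls also rest on a spread shared with the inhibitor groups. Fitted on the DMSO libraries alone, 0 sites were called from either bait. Leaving out 1 library moved the coding end count to 1 (without WT replicate 1 or 2) or 4 (without Ku70-/- replicate 3) and the signal end count to 1 (without WT replicate 1) or 5 (without Ku70-/- replicate 3). In the direct test of whether the genotype effect depends on the bait, 0 of 7 sites were called, against 1.75% of all sites, and 1 had an unadjusted limma p under 0.05. With both low-complexity libraries left out 3 were called: the site at 68006805, which is under the minimum in the Ku70-/- coding end group, Igkv9-120 (log2 0.59, limma adjusted p = 0.023) and Igkv1-117 (log2 -0.61, limma adjusted p = 0.034), the sign giving the signal end effect minus the coding end effect.

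Between baits in WT cells, 1 of 7 sites differed, against 58.8% of all sites. This was Igkv9-120, at 9.24 from the signal end and 17.6 from the coding end (log2 -0.93, SE 0.10, limma adjusted p = 0.00062). With each distinct junction counted once its difference was -0.10 (limma adjusted p = 0.64). That count follows the variety of joint structures and cannot test usage. Leaving out WT signal end replicate 1 or 2 gave 2 or 3 sites. Within Ku70-/- 0 of 6 sites differed between baits, and 0% of all sites did; 0 had an unadjusted limma p under 0.05. Igkv9-120 there read 15 and 12.9 from the signal end and 17.5 and 17.8 from the coding end, with 14.7 and 4.52 in the low-complexity libraries.

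Arrest against cycling cells in WT gave 5 of 7 region sites higher from the signal end bait. Of all 110 sites 50.9% were called in either direction (36 higher and 20 lower), and the median log2 over all sites was 0.92. Of the 7 region sites, 3 reached the minimum in cycling cells as well (Igkv9-120, Igkv1-117 and Igkv2-116), and 2 of these were called. Igkv1-117 went from a mean of 8.74 to 28 (log2 1.74, limma adjusted p = 0.0088) and Igkv2-116 from 2.85 to 8.21 (log2 1.82, limma adjusted p = 0.046). The other 3 called sites passed through the arrested libraries, which also defined the sites, so their count is a description. Among them Igkv1-122 was at 0.329, 0.386 and 1.70 per 1000 in cycling cells and at 13.0 to 17.3 after arrest, the site at 68114918 went from a mean of 0.580 to 3.62 and the site at 68006805 from 0.0474 to 0.413. Igkv9-120 was the exception among the well used sites, at 8.23, 9.21 and 4.44 in cycling cells and 8.61 to 9.95 after arrest (log2 0.40, limma adjusted p = 0.37). With each distinct junction counted once, 3 of the 5 called sites turned direction, Igkv2-116 (log2 -0.57, limma adjusted p = 0.075) and the sites at 68114918 and 68006805, and Igkv1-117 (log2 0.35) and Igkv1-122 lost their calls. The cycling libraries held 270 to 284 distinct Vκ junctions and the arrested ones 1922 to 2616. The 1 junction added to each count therefore weighs more in cycling cells, and these turns cannot be read as changes in usage. From the coding end bait 2 of 7 were higher, against 32.7% of all sites called in either direction (20 higher and 16 lower, median log2 0.49). These were Igkv1-122 (3.05 to 11.9, log2 2.18, limma adjusted p = 0.034) and Igkv9-120 (8.85 to 17.6, log2 0.99, limma adjusted p = 0.010). Neither passed with each distinct junction counted once (log2 1.40 and 0.21). Leaving out single libraries took these counts to between 2 and 5 for the signal end (2 without arrested replicate 1; 3 without arrested replicate 2 or 3 or cycling replicate 2, and without any 1 of these or cycling replicate 1 the calls of Igkv2-116 and the site at 68114918 were lost) and between 0 and 4 for the coding end (0 without any 1 of the arrested replicates, 1 without cycling replicate 2, 4 without cycling replicate 3).

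The same test in Ku70-/- cells found arrest to change 0 of 6 sites from the coding end bait (1.08% of all sites were called; 2 region sites had an unadjusted limma p under 0.05) and 1 of 6 from the signal end bait (9.57% of all sites): Igkv1-122, listed at 0.396, 0 and 0 per 1000 in cycling cells (2 junctions in all) and at 5.61, 5.86 and 8.38 after arrest. In cycling cells 0 of the 6 sites reached the minimum from the signal end bait, so this call is a description, and it was lost with each distinct junction counted once and with a pseudocount of 5 junctions. Without arrested replicate 2 or 3 or cycling replicate 3 no site was called there, without arrested replicate 1 there were 2, and without cycling coding end replicate 2 there was 1 from the coding end.

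L67 changed 0 of 7 region sites in any of the 4 settings, against 0% of all sites in WT from either bait, 1.79% in Ku70-/- from the coding end and 0% from the signal end. At an unadjusted limma p under 0.05 there were 0, 0, 2 and 2 region sites in these settings. Without DMSO replicate 3, 1 site was called in Ku70-/- from the coding end. Values with L67 stayed near those with DMSO in WT cells, for example 25.8, 28.3 and 25.9 per 1000 for Igkv1-117 from the coding end. L82-G17 changed 0 of 7 in WT from the coding end (5.36% of all sites), 0 of 7 in WT from the signal end (3.6%) and 0 of 7 in Ku70-/- from the signal end (1.8%), with 1, 0 and 2 at an unadjusted limma p under 0.05. For Ku70-/- from the signal end, 1 site gained a call (limma adjusted p at or under 0.05) without the low-complexity library. In Ku70-/- from the coding end it changed 2 of 7, against 8.93% of all sites: Igkv1-122 was lower (6.25 against 11.6; log2 -0.83, SE 0.24, limma adjusted p = 0.041) and Igkv2-116 higher (8.77 against 5.97; log2 0.57, SE 0.14, limma adjusted p = 0.017). The DMSO mean of Igkv1-122 holds the 16.9 of the low-complexity library beside 7.86 and 10.0. This count was 0 without L82-G17 replicate 2, 1 without L82-G17 replicate 1 or 3, 4 without DMSO replicate 3, and 0 on the 2 groups alone. The compounds were given at different doses, so no comparison between them was made.

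Single end positions showed how exact the WT ends were. With the signal end as bait, 27412 junctions of arrested WT cells with DMSO (98.9% of the signal ends at Igkv1-117) ended at 68071822, the first base of its heptamer, at 30.8, 28.1 and 23.3 per 1000 in the 3 libraries. The same held at Igkv1-122 (98.8% at 67967483), Igkv9-120 (99.5% at 68000451) and Igkv2-116 (99% at 68102612). The joint read there was the bait heptamer running directly into the Vκ heptamer, with no base lost from either end in 97.5% of the junctions at the Igkv1-117 position.

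Coding ends of WT cells peaked a few bases inside the segment. At Igkv1-117 the highest position was 68071818, 3 bp short of the last coding base, with 10336 junctions (39.8% of its coding ends; 8.78, 10.1 and 10.6 per 1000). A loss of 1 bp (15.8%) and the untrimmed end (14.5%) came next. A loss of 3 bp was also the highest position at Igkv1-122 (38%), Igkv9-120 (43.5%) and Igkv2-116 (32.7%). All 4 of these coding flanks end in tcc, as printed above. At the site at 68114918, whose flank ends in tcg, the untrimmed end was highest instead (41.7%) and a loss of 3 bp second (20.8%).

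Ku70-/- ends were spread over many positions. With the low-complexity library left out, the highest coding end position at Igkv1-117 from the coding end bait was 68071814 (7 bp lost) with 11.1%, then 68071811 (10 bp) with 10.6% and 68071807 (14 bp) with 10.1%. Each of these was built from 24 to 41 distinct joints. With the signal end as bait the highest signal end position was 68071821 (10.6%), which lies 1 base past the break and whose main form was aligned with an 8 bp overlap between the bait heptamer and the Vκ heptamer. Read towards its break the bait heptamer is CACTGTG and the Vκ heptamer is CACAGTG, so this overlap is not an exact match. Positions 2 and 14 bp inside the signal end followed, with 9.50 and 8.53%. A position 14 bp inside the signal end was also the highest at Igkv1-122 from both baits (12.6 and 12.8%).

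Pooled over the sites, WT signal joints were untrimmed at the Vκ end in 93.5% and WT coding joints in 17.7%, with 74.5% of coding joints losing 1 to 5 bp. With the low-complexity library left out, untrimmed Vκ coding ends of Ku70-/- cells were 0.131% of coding joints. There 18.6% had lost 1 to 5 bp, 25.8% 6 to 10 bp, 27.5% 11 to 20 bp and 23.9% 21 to 50 bp. Ku70-/- signal joints kept an untrimmed Vκ end in 5.43% and were placed past the break in 8.95%.

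**Figure D2:**
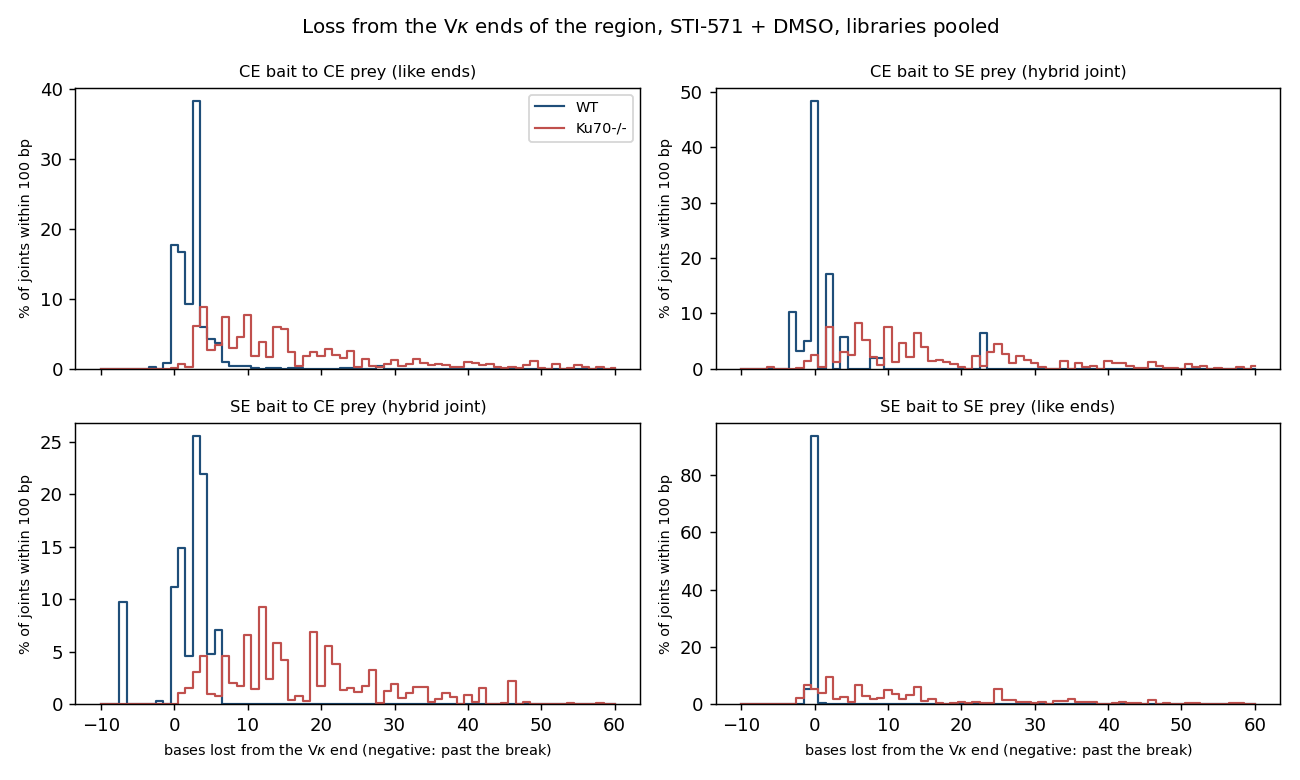
Each panel is 1 combination of bait and Vκ end, with the bases lost from the Vκ end on the x axis (negative values lie past the break) and the percent of joints within 100 bp of the break on the y axis, pooled over arrested libraries with DMSO and leaving out the low-complexity ones. WT signal joints form a single peak of 93.5% at 0 and WT coding joints peak at 3 bp, while the Ku70-/- curves are spread over many bases in all 4 panels.

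Hybrid joints were rare in WT cells and frequent in Ku70-/- cells. Among joints within 200 bp of a site, WT libraries with DMSO had 0.225, 0.296 and 0.133% hybrid joints with the coding end bait and 1.23, 0.490 and 0.838% with the signal end bait. Ku70-/- libraries had 23.3 and 18% from the coding end (38% in the low-complexity one) and 26.7 and 29.1% from the signal end (14.0%). Every Ku70-/- library lay above every WT library, the low-complexity ones included. Over the arrested libraries the means were 21.9 against 0.280% for the coding end bait and 27.1 against 0.954% for the signal end bait, without overlap within any treatment (exact permutation p = 0.00025 each, adjusted 0.00029).

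Whether hybrid joints differ between baits within Ku70-/- cells turned on the low-complexity libraries. The signal end bait gave 5.17 points more with all libraries (exact permutation p = 0.10) and 8.63 points more without both (exact permutation p = 0.00083). Leaving out only the coding end one gave 7.09 points and only the signal end one 6.71 points. In WT cells the signal end bait gave 0.674 points more (exact permutation p = 0.00025, adjusted 0.00044). In cycling Ku70-/- cells hybrid joints made up 22.2, 25.1 and 42.6% of 230, 259 and 303 joints from the coding end and 81.6, 61.9 and 61.9% of 174, 21 and 97 joints from the signal end.

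The rare WT hybrid joints from the coding end bait had the Vκ signal end untrimmed in 48.4% of 157. At Igkv1-117 the leading one, with 29 junctions at 68071822, was aligned with a 7 bp overlap: the bait read continued through its own CACAGTG, which is also the Vκ heptamer. Such reads place the bait end past its break and cannot be told by alignment from a bait cut that kept the heptamer.

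Trimming separated the genotypes in every arrested library. The share of joints within 10 bp of the break, of those within 100 bp, was 98.8, 99.1 and 98.8% in WT with DMSO from the coding end and 99.9% in each of the 3 from the signal end. In Ku70-/- cells it was 47.0 and 41.5% from the coding end (69.6% in the low-complexity library) and 48.2 and 41.0% from the signal end (63.9%). The means over arrested libraries were 43.4 against 98.9% and 46.3 against 99.9% (exact permutation p = 0.00025 each, adjusted 0.00029). The median loss from a coding end joined to the coding end bait was 3 bp in each arrested WT library and 10 to 15 bp in the Ku70-/- ones. For a signal end joined to the signal end bait it was 0 bp and 8 to 14 bp. The bait's own end was trimmed as well, by a median of 1 bp in WT and 14 to 19 bp in Ku70-/- from the coding end, and by 0 and 11 to 13 bp from the signal end.

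Joint structure was read from how bait and prey alignments meet: directly, with an overlap (MH) of 1 bp, with an overlap over 1 bp, or with inserted bases. The overlaps that randomly placed ends would give were not computed, so an overlap does not by itself show use of MH. Overlaps over 1 bp were 2.22, 2.93 and 2.46% of WT joints with DMSO from the coding end and 0.356, 0.0185 and 0.412% from the signal end. In Ku70-/- cells they were 15.6 and 15.3% from the coding end (3.46% in the low-complexity library) and 26.6 and 20.7% from the signal end (20.2%). Over the arrested libraries the means were 16.6 against 2.92% and 25.7 against 0.346%. Overlaps of 1 bp were 27.9 against 13.1% from the coding end and 18.3 against 6.86% from the signal end. All these differences had an exact permutation p of 0.00025 (adjusted 0.00029), and the groups did not overlap within treatments.

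Direct joints were fewer in Ku70-/- cells, 53.4 against 69.6% from the coding end and 55.2 against 91.1% from the signal end (exact permutation p = 0.00025 each, adjusted 0.00029). This direction held for junctions and not for distinct structures. With each distinct junction counted once, direct joints were 16.1 and 15.4 points more frequent in Ku70-/- cells (exact permutation p = 0.001 and 0.00025). In that count identical joints collapse, so an exact WT signal joint counts only 1 time per site and library. It describes the variety of structures and cannot test how often joints are direct. A single distinct joint made up 33.1 to 44.1% of the region junctions in arrested WT signal end libraries. The higher share of overlaps over 1 bp kept its direction under that count, at 10.9 and 14.9 points.

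Part of the overlaps arise where an end is aligned past its break. In the libraries with DMSO this was so for 2.09% of the joints with an overlap over 1 bp in Ku70-/- cells from the coding end and 20.4% from the signal end. It was so for 17.4% and 59.3% in WT cells, of 1829 and 172 such joints. With only joints whose ends stop at or before their breaks, the Ku70-/- excess was 13.7 points from the coding end and 22.7 points from the signal end.

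**Figure D3:**
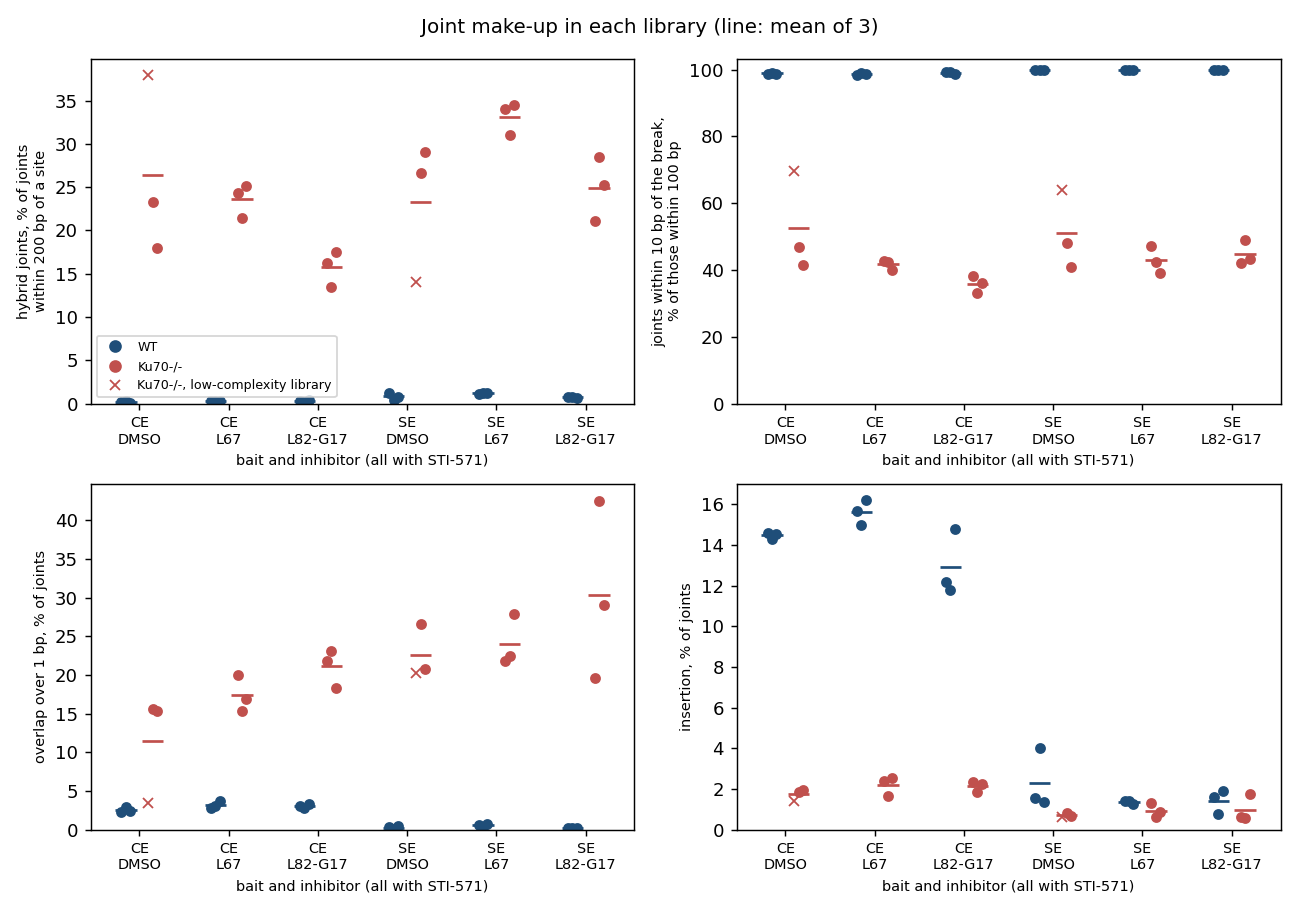
Each point is 1 arrested library, grouped on the x axis by bait and inhibitor, and the y axes give hybrid joints, joints within 10 bp of the break, overlaps over 1 bp and insertions in percent; lines are means of 3 and crosses mark the low-complexity libraries. WT points for joints within 10 bp lie at 98.5% or above and Ku70-/- points at 69.6% or below, and only the coding end bait in WT cells shows insertions above 11%.

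Insertions were a feature of WT coding joints. They made up 14.6, 14.3 and 14.5% of WT joints with DMSO from the coding end bait, and 1.86 and 1.95% of Ku70-/- joints (1.39% in the low-complexity library). The means over arrested libraries were 14.3 and 2.02% (exact permutation p = 0.00025, adjusted 0.00029). With the other bait they were 1.69 against 0.868%, with overlap (exact permutation p = 0.012, adjusted 0.013). In all, arrested WT coding end libraries held 26569 insertions with a median of 2 bp, and GT (29.7%), G (13.7%) and GTG (8.08%) led.

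These leading insertions mirror the bait end. The Jκ1 coding end reads GTGG outward from its break on the plus strand, and opening a hairpin off its tip leaves such a palindromic copy, known as P nucleotides. Of the WT insertions of 1 to 4 bp at an untrimmed bait end, 14364 of 17022 (84.4%) were such a copy. At a trimmed bait end 1236 of 7381 (16.7%) matched. The contrast was also present in the few Ku70-/- insertions, with 288 of 301 (95.7%) at untrimmed and 50 of 758 (6.60%) at trimmed bait ends. Insertions in WT signal joints were different, with a median of 1 bp and A (32.6%) and T (22.5%) leading.

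Overlaps of 1 bp in the region's WT signal joints came almost entirely from a single site. Like-end joints of the region had a 1 bp overlap in 4.45 to 8.90% over the 9 arrested WT libraries (mean 6.42%), against 1.00 to 1.99% (mean 1.54%) at the other Vκ sites. Without the site at 68114918 the region's value was 0 to 0.255% (mean 0.0799%). Of its WT signal joints 96.0% had the overlap, and its highest position was 68114917, 1 base past the break, with 3489 junctions (96.7%). Its last coding base is G, and the bait's last signal base is G as well. Of the 134 Vκ sites with at least 50 such joints, the 2 whose coding end is G, this one and Igkv8-27 (94.0%), had the overlap in 94.0 to 96.0% of joints. The other 132 had it in 0 to 7.58% (median 0.177%). A G before the heptamer can be assigned to either end, so an untrimmed signal joint at these sites is read as a 1 bp overlap.

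**Figure D4:**
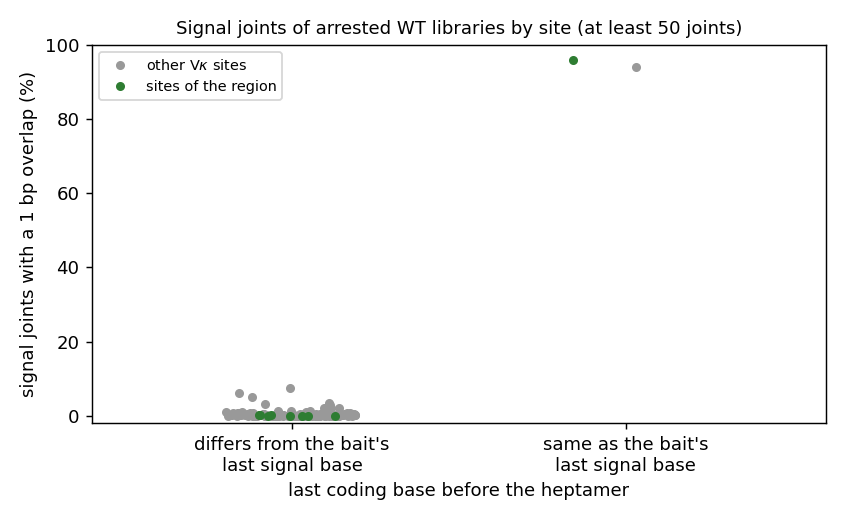
Each point is 1 Vκ site with at least 50 signal joints in the arrested WT libraries, grouped on the x axis by whether its last coding base equals the bait's last signal base, with the percent of signal joints that have a 1 bp overlap on the y axis. The 2 sites with the same base, 1 of them in the region, lie at 94.0 and 96.0%, and the other 132 at 7.58% or below.

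Set against all other Vκ sites of the same libraries, the region held fewer hybrid joints in Ku70-/- cells. From the coding end bait it had 21.9% where the rest had 32%, lower in 9 of 9 libraries (-10.01 points, SD 3.95; exact sign-flip permutation p = 0.0039, the smallest for 9 libraries; 0.012 adjusted over 24 comparisons). From the signal end bait it had 27.1% where the rest had 46.4%, again lower in 9 of 9 (-19.3 points, SD 7.30; adjusted exact permutation p = 0.012). The difference depended on which sites the region was set against, and its cause was not tested. Against the other deletional sites alone it was -2.16 points from the coding end (exact permutation p = 0.18) and 3.54 points, in the opposite direction, from the signal end (exact permutation p = 0.016). The other sites of sTAD1-2 and sTAD3 gave -6.17 points (exact permutation p = 0.0078) and -0.96 points (exact permutation p = 0.52).

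Trimming of the region's ends in Ku70-/- cells did not differ detectably from the rest (43.4 against 43.0% within 10 bp from the coding end, exact permutation p = 0.97; 46.3 against 47.8% from the signal end, exact permutation p = 0.49). The first difference read 0.368 points with all libraries and -1.93 points without the low-complexity library. Overlaps over 1 bp from the signal end were 25.7 against 21.3% and did not pass (4.32 points, exact permutation p = 0.0625, adjusted 0.12). Without the low-complexity library the difference passed, before adjustment, at 5.12 points (exact permutation p = 0.023). From that bait the Ku70-/- values that passed beside hybrid joints were overlaps of 1 bp, 18.3 against 21.7% (lower in 8 of 9; adjusted exact permutation p = 0.028), and insertions, 0.868 against 1.5% (lower in 7 of 9; adjusted exact permutation p = 0.043). The first was lost with each distinct junction counted once (-0.025 points) and both against the other deletional sites alone (-2.55 and -0.177 points). In WT cells the joints within 10 bp were 99.9% in the region and 99.7% in the rest from the signal end, higher in 9 of 9 libraries (adjusted exact permutation p = 0.012). Hybrid joints there were 0.954 against 1.57% (lower in 9 of 9; adjusted exact permutation p = 0.012), a call lost with each distinct junction counted once (-0.362 points). Overlaps over 1 bp there were 0.346 against 0.742% (lower in 9 of 9; adjusted exact permutation p = 0.012). From the coding end bait they went the other way in WT cells, 2.92 against 2.44% (higher in 8 of 9; adjusted exact permutation p = 0.021), and this difference turned to -1.51 points against the other deletional sites and -2.92 points against the other sites of sTAD1-2 and sTAD3. Also passed in WT cells from the signal end were direct joints, 91.1 against 95.2%, and 1 bp overlaps, 6.86 against 2.06%. Both lost their calls with each distinct junction counted once. Joints within 10 bp from the coding end passed as well, 98.9 against 98.0%. There the other sites of sTAD1-2 and sTAD3 had 99.1% and the other deletional sites 98.8%. Each of these held in 9 of 9 libraries (adjusted exact permutation p = 0.012). In all, 11 of the 24 comparisons with the rest passed.

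Away from the 9 sites, few WT junctions were found. The share of region junctions over 200 bp from any site was at most 2.48% in WT libraries, 0 to 10.5% in arrested Ku70-/- libraries and 20.9 to 64.4% in cycling Ku70-/- libraries. Besides scattered positions, 2 compact pileups stood out, chosen after their values were seen, so they are described without a test. Their break points are shown with the minus-strand sequence, with the 7 bases after the break in capitals.
Downstream of Igkv1-117, chr6:68072619-68072669: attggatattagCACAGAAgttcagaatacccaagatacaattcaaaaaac
Upstream of the site at 68114918, chr6:68114381-68114431: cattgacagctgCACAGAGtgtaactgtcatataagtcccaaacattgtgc

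The first lies 836 bp to the signal side of Igkv1-117, between 68072657 and 68072658, with 2910 junctions within 100 bp, 96.9% of which face away from the break. The second lies 498 bp to the coding side of the site at 68114918, between 68114419 and 68114420, with 3247 junctions, 92.0% of which face away. Each break was placed at the minus-strand CAC that best divided plus-strand from minus-strand ends, so these shares describe the fit of that choice. The heptamer positions there start with CAC by that choice. They read CACAGAA and CACAGAG, opposite in direction to the 9 sites. The nonamer position behind it has 5 and 4 mismatches of 9 bases to the consensus at a spacer of 12, and 2 and 5 at a spacer of 23.

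In arrested cells the first centre had 0 to 0.111 junctions per 1000 Vκ junctions in the 9 WT coding end libraries (mean 0.0477) and 0.364 to 1.24 in the Ku70-/- ones (mean 0.890). For the signal end bait the ranges were 0.0700 to 1.26 and 0 to 2.39 (means 0.472 and 0.814) and overlapped widely. The second centre had 0.0193 to 0.0652 and 0.177 to 3.07 from the coding end (means 0.0428 and 1.68), and 0.0117 to 0.438 and 0 to 1.602 from the signal end (means 0.187 and 0.837). The 0 values of Ku70-/- signal end libraries are those of the low-complexity library. Coding end libraries of the genotypes did not overlap at either centre.

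The direction of the ends also differed. In WT cells 20.7% of the first centre's coding end junctions and 0% of its signal end junctions (0 of 875) were on the minus strand, that is running leftward, and 5.56 and 1.83% of the second centre's. The Ku70-/- shares were 36.5 and 54.4%, and 68.0 and 65.0%. A heptamer in the direction shown would put the signal end on the minus-strand side. The WT signal end junctions lay on the other side, with 875 plus-strand ends at the first centre and 376 of 383 at the second. Whether either sequence acts as an RSS was not tested. Of WT ends within 100 bp of the first break, 100% from the coding end and 95.9% from the signal end lay within 10 bp of it, and 92.6 and 98.2% did at the second, where the farthest were 47 and 45 bp away. In Ku70-/- cells 31.6 and 23.3% lay within 10 bp of the first break and 28.5 and 39.6% of the second.

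**Figure D5:**
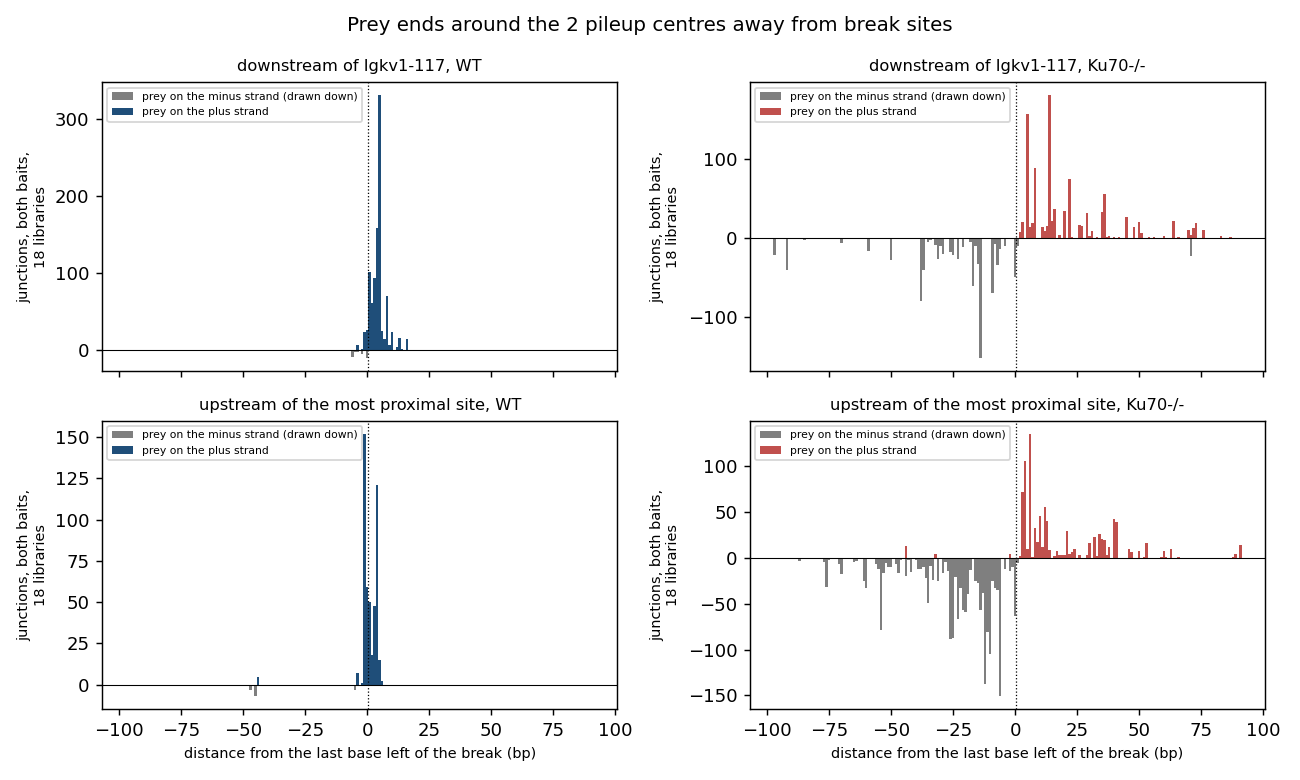
Each panel shows 1 pileup centre in 1 genotype (18 arrested libraries, both baits), with the distance from the last base left of the break on the x axis and junctions on the y axis, minus-strand ends drawn downward in grey. WT ends are mostly on the plus strand and at least 92.6% of them lie within 10 bp of the break, and Ku70-/- ends lie on both sides, with at most 39.6% within 10 bp.

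Within each inhibitor treatment, hybrid joints and overlaps were higher and joints within 10 bp lower in Ku70-/- cells, as with DMSO. Some smaller differences did not keep their direction: with L82-G17 from the signal end bait, the centre downstream of Igkv1-117 had a mean of 0.81 per 1000 in WT and 0.715 in Ku70-/- cells. Hybrid joints in Ku70-/- cells were 24.4, 21.4 and 25.1% with L67 and 16.2, 13.5 and 17.6% with L82-G17 from the coding end, beside 23.3 and 18% with DMSO. From the signal end they were 34.0, 31.0 and 34.4% with L67 and 21.1, 28.5 and 25.2% with L82-G17, beside 26.7 and 29.1%. Joints within 10 bp from the coding end were 42.7, 42.5 and 40.1% with L67 and 38.1, 33.1 and 36.0% with L82-G17, beside 47.0 and 41.5%. No test of these measures between inhibitor and DMSO was planned, and groups of 3 could not go below an exact permutation p of 0.1. For the region's share itself, L67 minus DMSO was 0.359 points in WT and 0.804 in Ku70-/- from the coding end, -0.121 and 0.744 from the signal end, and L82-G17 minus DMSO was -0.0808, 0.555, -0.531 and 0.703 in the same order (exact permutation p = 0.1 to 0.7, adjusted 0.53 to 0.70). Without the low-complexity library, the Ku70-/- differences shrank to 0.277 from the coding end and 0.29 from the signal end for L67, and to 0.0276 and 0.25 for L82-G17.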

How the data were processed

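HTGTS-JoinT-seq libraries were made from the Jκ1 coding end and signal end of vAbl pro-B cells, 48 in all. Per the labels and the study's methods, the authors took each library down to 500000 read pairs, mapped them to mm9 with Bowtie2 through TranslocWrapper.pl with duplicates kept, and deposited 1 junction per line with its prey position, strand and alignment bounds, so the deposited values are positions and other fields rather than counts or scores. Every number was computed here from these lists. Each library was read in 2 sequencing runs, of which the smaller gave 9.42 to 10.6% of the junctions. Replicates were numbered in accession order, since the labels give no replicate numbers.

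Break sites were positions with at least 30 signal end junctions in arrested WT signal end libraries that start with CAC, merged within 50 bp and named by the gene annotation of mm9; a gene names only its most used break. Junctions within 200 bp belong to a site. The prey strand gives the end kind. Trimming uses joints within 100 bp and a limit of 10 bp, and joint structure uses overlaps or gaps of up to 20 bp, after the study's methods. Shares were compared across libraries by exact permutation (two-sided), and site usage with limma 3.58.1 (R 4.3.3) on log2 junctions per 1000 plus 1 junction, with at least 50 junctions on average. The limma step was tested on simulated counts that held no duplicated joints and no low-complexity library. That test therefore does not show how these features affect the calls. Named are all break sites and up to 3 positions of each site and end. Of the pileups of at least 30 junctions away from sites, only 2 centres and the recurrent Ku70-/- joints, found in at least 6 libraries, are named. The members and the lists were chosen with earlier results of these data known. Alternatives covered counting, windows, denominators, comparison sites, filters, pseudocounts and left-out libraries. Reference sequence was read from the mm9 genome (NCBIM37). Python 3.11.15, pandas 2.3.3 and numpy 2.4.6 were used.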

Additional observations from a re-analysis of the deposited data

How the results depend on the processing

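Of the tests and counts reported, the genotype differences in hybrid joints, trimming, overlaps and coding end insertions kept direction and call under every alternative tried, as did the lower signal end share in Ku70-/- cells. Duplicates were kept in the deposited lists, and counting each distinct junction once was the setting that changed most. The cause of the changes below was not tested. No paired analysis was possible because the labels carry no replicate numbers. All differences in shares are in percentage points and usage changes in log2 units.

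With each distinct junction counted once, Ku70-/- minus WT reversed for direct joints (16.09 for the coding end bait, 15.43 for the signal end bait), for the coding end share (0.296) and for signal end usage of Igkv1-117 (0.32). Identical joints collapse in that count, so the reversal for Igkv1-117 cannot be read as a change in usage. Signal end minus coding end bait in WT reversed for overlaps of 1 bp (1.90) and over 1 bp (1.95) and lost its call for direct joints (1.44) and the share (-0.236). In Ku70-/- cells it lost its call for insertions (-2.45) and gained one for joints within 10 bp (6.09). Region minus rest reversed for direct joints in Ku70-/- from the signal end (1.46) and WT from the coding end (1.83), for hybrid joints in WT from the coding end (0.389) and for insertions in WT from the coding end (-3.98) and signal end (2.05). It lost its call in WT from the signal end for direct joints (-1.23), hybrid joints (-0.362) and 1 bp overlaps (1.95) and in Ku70-/- from the signal end for 1 bp overlaps (-0.0250), and gained one for direct joints in Ku70-/- (2.20) and 1 bp overlaps in WT (1.01) from the coding end. Shares moved for L67 (0.571) and L82-G17 (0.334) in WT and L82-G17 in Ku70-/- (-0.0195) from the signal end, and for arrest in Ku70-/- from the signal end (0.407) and in WT from the coding end (1.78) and signal end (1.83). Arrest reversed for WT signal end usage of Igkv2-116 (-0.57) and the sites at 68006805 (-1.92) and 68114918 (-0.45), the last 2 of which reached the minimum through the arrested libraries alone, so that their values are a description. The 1 junction added to each count weighs more in the cycling libraries, so these reversals cannot be read as changes in usage. The region sites called became 1 for L82-G17 in Ku70-/- from the coding end, 1 for L82-G17 in WT from the signal end, 3 between baits in WT, and for arrest 2 in Ku70-/- from the signal end, 1 in WT from the coding end and 3 in WT from the signal end.

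With shares taken of all junctions of a library, Ku70-/- minus WT was -1.46 in arrested cells from the coding end and, in cycling cells, -0.465 and -0.527 from the coding and signal ends. With shares of the 500000 read pairs these were -2.55, -0.122 and -0.0565. On that scale L67 in WT from the coding end was -0.0237, L82-G17 was -0.400 in Ku70-/- from the signal end, -2.34 in WT from the coding end and -2.83 in WT from the signal end, arrest in WT from the coding end was 4.64 and the bait difference in Ku70-/- was -0.180. With only junctions within 200 bp of a site, the coding end share differed by -0.538 between genotypes.

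Against the other deletional sites alone, region minus rest from the coding end became, in WT, 0.802 for direct joints, 0.0461 for hybrid joints, -1.51 for overlaps over 1 bp and 0.0890 for joints within 10 bp, and in Ku70-/- -2.16 for hybrid joints, 0.196 for insertions and -0.557 for joints within 10 bp. From the signal end in Ku70-/- it became 3.54 for hybrid joints, -0.177 for insertions, -2.55 for 1 bp overlaps and 4.33 for overlaps over 1 bp. Against the other sites of sTAD1-2 and sTAD3 it became, in WT from the coding end, 3.08 for direct joints, 1.38 for insertions, -1.55 for 1 bp overlaps, -2.92 for overlaps over 1 bp and -0.153 for joints within 10 bp. In Ku70-/- it became 0.262 for insertions and 4.54 for joints within 10 bp from the coding end, and -0.964 for hybrid joints, -0.240 for insertions, -2.77 for 1 bp overlaps and 1.35 for joints within 10 bp from the signal end.

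In Ku70-/- cells, signal end minus coding end bait gained a call for hybrid joints without both low-complexity libraries (8.63) and with the end told by the side of the break (10.0), and for trimming with a limit of 5 bp (6.42). Of region sites called, the genotype effect by bait gave 3 without the low-complexity libraries. L82-G17 in Ku70-/- from the coding end gave 1 with no filter. Fitted on the 2 groups compared, 0 were called between genotypes from either bait, 0 for L82-G17 in Ku70-/- and 2 for L82-G17 in WT from the coding end. With a pseudocount of 5 junctions arrest gave 0 in Ku70-/- from the signal end.

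Leaving out 1 library at a time gave 3.77 to 7.09 for hybrid joints between baits in Ku70-/- cells and -0.497 to -0.184 for the coding end share between genotypes. Without the low-complexity library, region minus rest in Ku70-/- was 5.12 for overlaps over 1 bp from the signal end and -1.93 for joints within 10 bp from the coding end. The region sites called ranged from 1 to 4 (coding end) and 1 to 5 (signal end) between genotypes, 0 to 1 for L67 and 0 to 4 for L82-G17 in Ku70-/- from the coding end, 0 to 1 for L82-G17 in Ku70-/- from the signal end, 1 to 3 between baits in WT, and for arrest 0 to 1 (coding end) and 0 to 2 (signal end) in Ku70-/- and 0 to 4 (coding end) and 2 to 5 (signal end) in WT.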

Other observations

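A few junctions over 200 bp from any site recurred in Ku70-/- libraries with the same prey position, bait loss and overlap, including libraries of cycling cells. From the coding end bait, a joint at 68069499 with 36 bp lost from the bait and a 1 bp insertion was found in 10 of 12 libraries, with 327 junctions. It made up 21.6, 17.3 and 13.4% of the region junctions of the 3 cycling libraries. From the signal end bait, a joint at 67999091 with 4 bp lost and a 5 bp overlap was found in 10 of 12 libraries, with 243 junctions, and made up 4.55, 10.2 and 21.7% of the cycling ones. Further recurrent joints lay at 68099055 (148 junctions), 68007113 (87) and 68109307 (62) from the coding end and 68072188 (63) from the signal end.

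Recurrent structures of this kind accounted for 24.1, 19.6 and 33.0% of the region junctions in the cycling Ku70-/- coding end libraries and for 9.55, 10.2 and 21.7% in the signal end ones. None was found in the low-complexity libraries, which come from the same genotype. In WT cells 1 such structure was seen from each bait, at the pileup upstream of the site at 68114918, and neither was found in a cycling library.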
